A study of Mus musculus with 16 samples.

Results

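A set of 10 genes known as markers of the choroid plexus was followed array by array in mouse cerebellum: Ttr, Kl, Folr1, Enpp2, Cldn2, Slc4a5, Clic6, Aqp1, Prlr and Otx2. They are known genes of this tissue, and the set was chosen with earlier results of these data known. They were found by gene name, old or current, among the non-control probes of a one-colour Agilent mouse array. They were read by 17 of its 41174 probes, and all 10 were among the 17981 genes that were detected well enough to be tested. One of them, Slc4a5, carries the older clone name C330016K18Rik on the array. The cerebella came from 3-week-old Npc1-/- mice and their wild-type (Npc1+/+) counterparts of the line BALB/cNctr-Npc1m1N/J, bred in-house on a BALB/c background. There were 4 Npc1-/- and 4 wild-type arrays, numbered 1 to 4 within each genotype, each loaded with Cy3-labelled material made from 500 ng of total RNA. The loss of Npc1 is constitutive and affects every cell of the animal, so no cell type of the dissection was spared.

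The choroid plexus is a folded epithelium on a vascular core that hangs in the brain ventricles and secretes cerebrospinal fluid. One of its fronds lies in the fourth ventricle, directly under the cerebellum, and a piece of it can be taken along when the cerebellum is lifted out. Its epithelial cells make transthyretin in very large amounts, pump ions and bicarbonate, pass water, and carry folate and hormones from blood to fluid. The comparison asked how much of this tissue's RNA each array carried and whether that amount went with the genotype. In bulk tissue, fewer choroid plexus cells and less RNA per cell cannot be told apart.

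Signals are given throughout as log2 of the array's processed signal relative to the 75th percentile of that same array, so that 1 unit is a 2-fold difference, and a level is compared between arrays for a single probe and never between genes. Each array detected 22182 to 28128 of its 41174 probes well above background, fewest on wild-type replicate 2. Npc1, the mutated gene, had -2.53, -2.44, -2.32 and -2.60 in the 4 Npc1-/- arrays, against -0.52, -0.40, -0.64 and -0.37 in the 4 wild-type arrays, so each array matched its label. The labelled tissue was borne out by the cerebellar neuron markers, all 10 of which were above background on every array. Wild-type replicates 3 and 2 stood apart over all genes: 488 and 73 genes were lower there than on any other array by at least 1 log2 unit, and none of the 10 choroid plexus genes was among them. The number of arrays, 4 per genotype, limits the precision of every comparison, and p-values reflect just the spread among these 8 arrays.

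Among the 3 genes whose products are released into the fluid, all were lowest on Npc1-/- replicate 3. Ttr encodes transthyretin, the carrier of thyroid hormone and retinol-binding protein that is the best-known product of this epithelium. Its signal was 0.96, 1.74, -1.68 and 1.24 in Npc1-/- replicates 1 to 4, against 0.77, 1.31, 0.59 and 1.00 in wild-type replicates 1 to 4. One Npc1-/- array thus lay 2.27 log2 units, or 4.81-fold, below the next lowest array, which was a wild-type one, while the remaining 7 arrays lay between 0.59 and 1.74 and mixed the genotypes. Enpp2, the lysophospholipase autotaxin, which oligodendrocytes also make, had 4.18, 4.64, 2.63 and 4.57 in Npc1-/- arrays, against 3.95, 4.67, 4.20 and 4.16 in wild-type arrays. The third Npc1-/- array was again low, by 1.32 log2 units or 2.50-fold under the next. Kl, the anti-ageing protein klotho and co-receptor of a fibroblast growth factor, had -1.20, -0.74, -3.02 and -1.18 in Npc1-/- arrays, against -1.87, -1.20, -2.16 and -1.77 in wild-type arrays. Its gap was smaller, 0.86 log2 units, and Npc1-/- replicates 1, 2 and 4 lay above the highest wild-type array, though replicate 1 by less than 0.01.

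The 2 receptors that load the epithelium from blood behaved differently from each other on the probes that stood for them. Folr1 encodes the folate receptor through which the plexus moves folate into the fluid. It had 0.72, 1.40, -1.53 and 1.13 in Npc1-/- arrays, against 0.07, 0.82, 0.41 and 0.68 in wild-type arrays. Npc1-/- replicate 3 lay 1.59 log2 units, or 3.02-fold, below the next array, wild-type replicate 1. Prlr, the prolactin receptor, which in this tissue takes up prolactin, had -3.48, -3.71, -4.27 and -3.65 in Npc1-/- arrays, against -4.32, -3.94, -4.25 and -3.42 in wild-type arrays. The lowest array for Prlr was wild-type replicate 1, only 0.05 below Npc1-/- replicate 3, and its whole range over the 8 arrays was 0.89. This Prlr probe was well above background on 7 of the 8 arrays, not on wild-type replicate 2.

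Prlr was read by 3 probes, and the sequence of the one used is shown because the range on this probe was small. It lies at chr15:10387524-10387583 on the plus strand of build mm7, is printed 5′ to 3′ as the array file gives it, and the letters carry no marked base.
Prlr probe: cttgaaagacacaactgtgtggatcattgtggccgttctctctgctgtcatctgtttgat
The second Prlr probe had -3.75, -3.10, -4.60 and -3.78 in Npc1-/- arrays, against -4.57, -4.06, -4.66 and -3.99 in wild-type arrays. On it the lowest array was wild-type replicate 3, with Npc1-/- replicate 3 just above. The third was well above background on 2 Npc1-/- arrays and no wild-type array, and was not tested. No fold difference is given for it, since the mean of either genotype takes in arrays not above background.

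The 4 genes of ion, water and junction transport were all lowest on Npc1-/- replicate 3. Aqp1, the water channel of the fluid-facing membrane, had -0.95, -0.21, -3.05 and -0.52 in Npc1-/- arrays, against -1.63, -0.96, -1.89 and -1.04 in wild-type arrays. Npc1-/- replicate 3 lay 1.16 log2 units, or 2.24-fold, under the next array, and the other 3 Npc1-/- arrays lay above all 4 wild-type arrays. For Npc1-/- replicate 1 the margin was narrow, -0.950 against -0.957 in wild-type replicate 2. Slc4a5, a sodium bicarbonate cotransporter of the same membrane, had -1.38, -0.97, -2.94 and -1.21 in Npc1-/- arrays, against -2.13, -1.78, -2.28 and -1.93 in wild-type arrays. It showed the same arrangement, with a gap of 0.66 below and 3 Npc1-/- arrays above all wild-type ones by a wider margin. Cldn2, the claudin that lets cations pass between the cells, had -2.98, -2.28, -4.92 and -2.89 in Npc1-/- arrays, against -3.97, -2.21, -3.60 and -3.16 in wild-type arrays. Here wild-type replicate 2 was the highest array and wild-type replicate 1 the second lowest, 0.95 above Npc1-/- replicate 3. Clic6, a member of the chloride intracellular channel family, had 0.97, 1.53, -0.24 and 1.12 in Npc1-/- arrays, against 0.73, 1.14, 0.63 and 0.69 in wild-type arrays. Its gap below was 0.88 log2 units.

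A pair of probes of these transporters are printed because the readings of different probes of a gene bear on the pattern. Both are on the plus strand of mm7, 5′ to 3′, and no base is marked. The Clic6 probe, at chr16:92594316-92594375, and the Slc4a5 probe, at chr6:83305456-83305515, are each the second probe of their gene.
Clic6 probe: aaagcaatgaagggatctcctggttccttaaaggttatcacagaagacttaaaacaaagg
Slc4a5 probe: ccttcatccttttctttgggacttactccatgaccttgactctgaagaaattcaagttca
The Clic6 probe repeated the low array, with -2.20, -2.14, -3.99 and -2.36 in Npc1-/- arrays, against -2.91, -3.16, -3.29 and -2.84 in wild-type arrays. A second Folr1 probe did so too, with -2.73, -2.51, -4.31 and -2.68 in Npc1-/- arrays, against -3.75, -3.20, -3.20 and -2.93 in wild-type arrays. The Slc4a5 probe went the other way: it had -5.63, -6.06, -3.72 and -6.01 in Npc1-/- arrays, against -8.04, -6.13, -7.82 and -7.03 in wild-type arrays, so that Npc1-/- replicate 3 was its highest array. It exceeded background well in Npc1-/- replicates 1 and 3 alone and was not tested. No fold difference is given for it, since the mean of either genotype takes in arrays on which it was not above background. Of the 13 probes that were tested, 10 were lowest on Npc1-/- replicate 3. The remaining untested ones were a Kl probe above background on none of the arrays and an Enpp2 probe above background on wild-type replicate 2 alone.

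Otx2, the homeobox transcription factor that specifies and maintains this epithelium and is also made by granule cell precursors of the posterior cerebellum, was the steadiest of the 10. It had -1.59, -1.42, -1.67 and -1.78 in Npc1-/- arrays, against -1.51, -1.70, -1.69 and -1.55 in wild-type arrays. The groups interleaved within a range of 0.36 log2 units, and Npc1-/- replicate 3 lay in the middle. The array carries 10 spots of the Otx2 probe, whose SD within an array was 0.06 to 0.12, against an SD between arrays of 0.15 in Npc1-/- and 0.09 in wild-type.

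**Figure D1:**
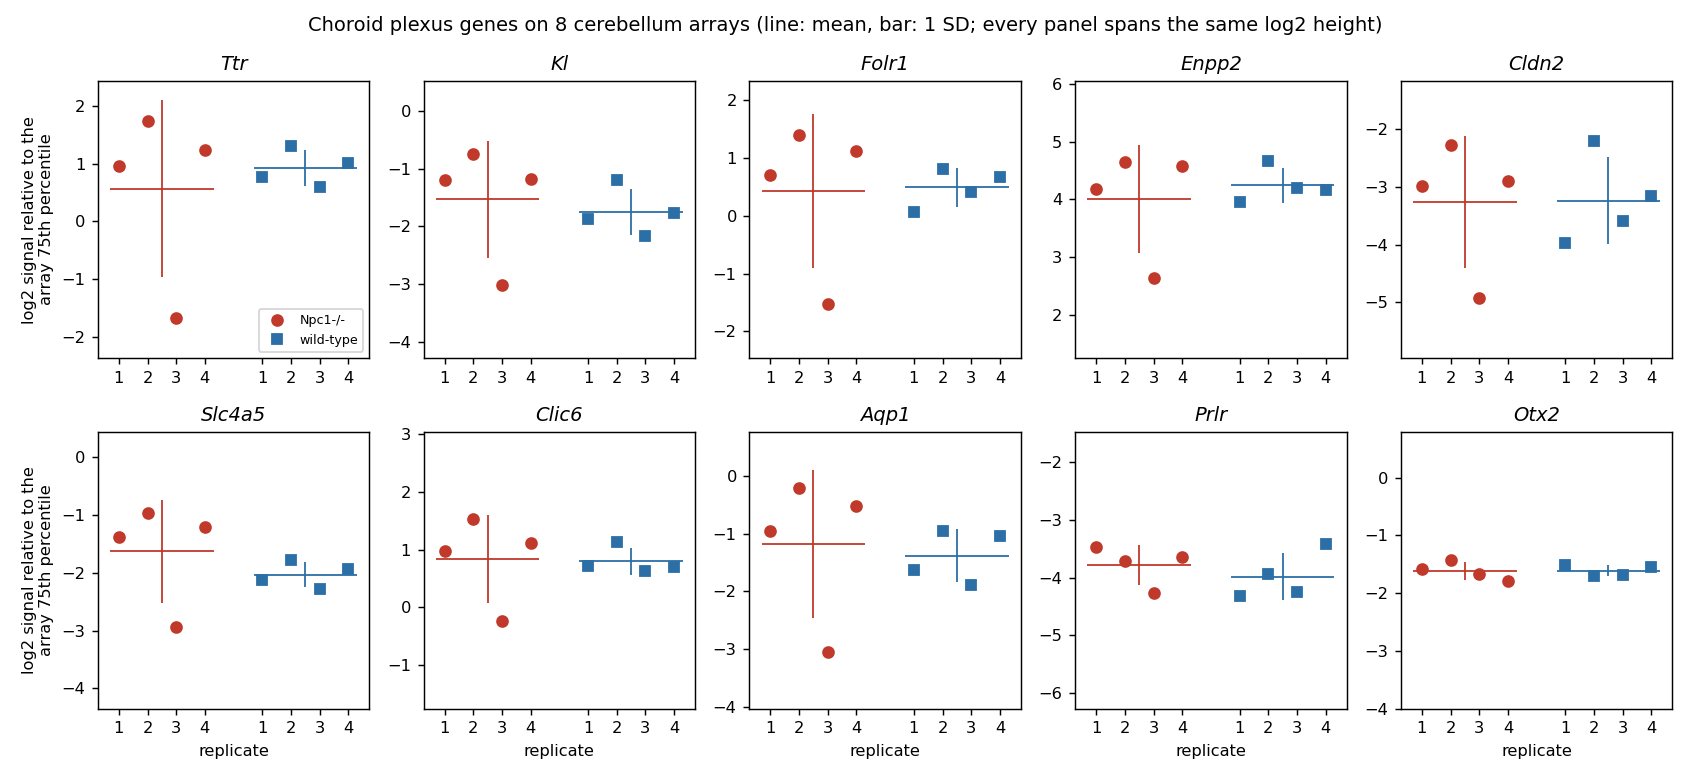
Log2 signal of each of the 10 genes relative to the array's 75th percentile, 1 point per array, with Npc1-/- replicates 1 to 4 (red circles) left of wild-type replicates 1 to 4 (blue squares); the line is the group mean, the bar 1 SD (n = 4), and every panel spans the same height. Npc1-/- replicate 3 is the lowest point in 8 panels, by 2.27 log2 units for Ttr, and Prlr and Otx2 do not show it.

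Counted over the set, Npc1-/- replicate 3 was the lowest of the 8 arrays for 8 of the 10 genes, against 15.3% of the 17981 genes tested. For 4 of them, Ttr, Folr1, Enpp2 and Aqp1, it lay at least 1 log2 unit under the next array, which held for 14 genes in all, or 0.0779%. No other array was lower than the rest by that much for any of the 10 genes. Of the other 10 genes with such a gap, 6 belonged to a second, wider list of choroid plexus genes, namely Tmem72, Kcne2, Sostdc1, Car12, Ecrg4 and Wfdc2, with gaps of 2.35, 2.19, 1.61, 1.54, 1.43 and 1.04. The last 4 were Prr32, Slc28a3, Inmt and Defb11, named here because they complete the count. Tmem72, Slc28a3 and Defb11 had -7.98, -7.22 and -6.53 on Npc1-/- replicate 3, under that array's lowest above-background signal of -6.01. The size of their gaps is therefore uncertain. At the upper end, Npc1-/- replicate 2 was the highest array for 7 of the 10 genes and wild-type replicate 2 for Enpp2 and Cldn2.

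A choroid index was computed for each array as the mean, over the 10 genes, of the log2 signal minus that gene's mean over the 8 arrays. It was 0.26, 0.73, -1.34 and 0.42 in Npc1-/- replicates 1 to 4, against -0.26, 0.35, -0.27 and 0.10 in wild-type replicates 1 to 4. The arrays thus spanned 2.07 log2 units, or 4.19-fold, with both ends of the span in Npc1-/- arrays. Without Npc1-/- replicate 3 the span was 1.00. The arrays lay on 4 slides scanned on 2 days. Npc1-/- replicate 3 shared slide 4 with wild-type replicate 1 and was scanned on the same day as Npc1-/- replicate 2, which had the highest index.

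The genes moved up and down together from array to array. Of the 9 other genes, 7 correlated with Ttr over the 8 arrays, with Pearson r from 0.86 for Slc4a5 to 0.98 for Folr1 (exact permutation over pairings, two-sided, Benjamini-Hochberg adjusted p over 9 relations from 0.00112 to 0.00185). An unadjusted exact permutation p under 0.05 with r above 0 was reached by 7 of the 9 and by 2.78% of the 17965 genes with a value on every array. Spearman's rho for these 7 was 0.81 to 0.93 (exact permutation, adjusted p from 0.0067 to 0.028). Prlr (r = 0.54, rho = 0.50, exact permutation, adjusted p = 0.142 and 0.243) and Otx2 (r = 0.27, rho = 0.07, exact permutation, adjusted p = 0.547 and 0.882) did not pass. When the 2 arrays farthest from the median of Ttr, Npc1-/- replicates 3 and 2, were left out, r for the same 7 genes was 0.71 to 0.89 over 6 arrays, and none of the 9 relations passed (exact permutation, adjusted p from 0.0688 to 0.394). The passing of the test thus rested on having those 2 arrays in it; their removal also cut the number of arrays to 6, and the effect of the smaller number alone was not tested. No genotype, slide or scan day held the 6 arrays that a correlation within it would need.

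**Figure D2:**
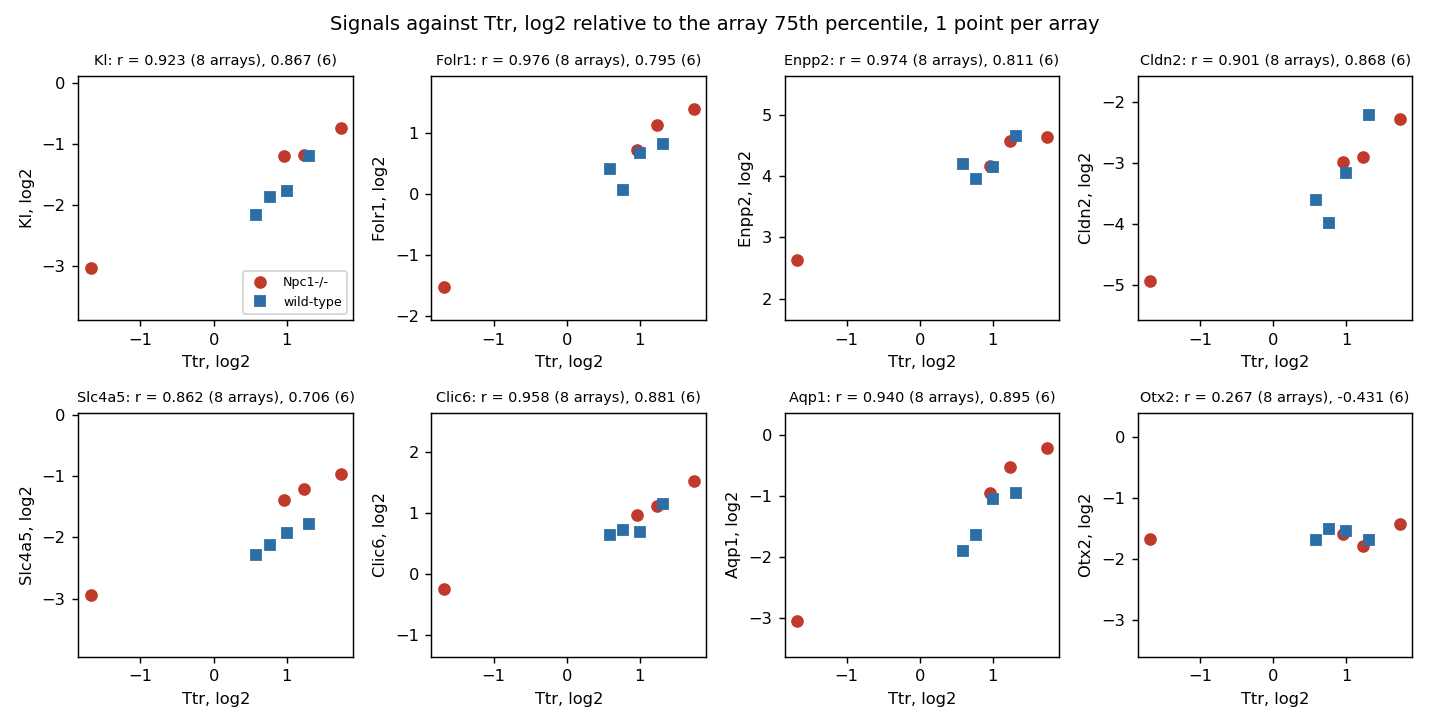
Log2 signal of 8 of the genes (y axis) against that of Ttr (x axis), both relative to the array's 75th percentile, 1 point per array, Npc1-/- as red circles and wild-type as blue squares. Npc1-/- replicate 3 lies alone at the lower left in every panel but that of Otx2, where it lies level with the other arrays (r over 6 arrays, without Npc1-/- replicates 3 and 2, is 0.71 to 0.89 for the other 7 genes and -0.43 for Otx2).

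A wider list of 38 choroid plexus genes, also chosen with earlier results known and none of them among the 10, showed the same order of arrays. Of these, 33 were tested, and Npc1-/- replicate 3 was the lowest array for 20 of the 33, or 60.6%. Their mean centred signal was 0.16, 0.47, -0.74 and 0.39 in Npc1-/- arrays, against -0.25, 0.24, -0.27 and -0.01 in wild-type arrays. The median Pearson r of the 33 with the choroid index was 0.79 over 8 arrays, beside -0.00 for all genes, and 0.86 over the 7 arrays without Npc1-/- replicate 3, beside -0.03 for all genes. No gene of the 33 passed between the genotypes (limma, adjusted p of at least 0.254). An unadjusted limma p under 0.05 was reached by 3 of the 33 and by 7.4% of all genes. A log2 fold change above 0 was seen for 22, and the median was 0.20. An r of at least 0.9 was reached by 11 of the 33, or 33.3%, and by 53 of 17966 genes, or 0.295%, which include 8 of the 10 genes of the index. These correlations are descriptions, since all points share the scaling of their array.

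Among 2379 candidates with a range of at least 1 log2 unit, the 10 genes whose signals were most like the index over the 8 arrays were Sostdc1 (r = 0.990), Wfdc2 (r = 0.987), Trpv4 (r = 0.985), Car12 (r = 0.981), Col8a1 (r = 0.980), Lbp (r = 0.979), Tmem72 (r = 0.975), Col8a2 (r = 0.970), Crhr2 (r = 0.969) and Prr32 (r = 0.968). Of these, 7 were on the wider list, and Lbp, Crhr2 and Prr32 were on neither list. Sostdc1, a secreted antagonist of bone morphogenetic protein signalling, had 0.05, 0.83, -2.14 and 0.62 in Npc1-/- arrays, against -0.33, 0.51, -0.53 and 0.04 in wild-type arrays. Kcne2, a potassium channel subunit of this epithelium, had -0.06, 0.43, -2.61 and 0.44 in Npc1-/- arrays, against -0.42, 0.43, -0.41 and -0.06 in wild-type arrays. Both placed Npc1-/- replicate 3 far under 7 arrays in which the genotypes were mixed. Car12, a carbonic anhydrase, ranged from -3.25 on that array to -0.85 on Npc1-/- replicate 2, and F5, coagulation factor V, ranged from -6.36 to -3.39 and was above background on 4 arrays.

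Markers of neighbouring tissues did not single out the same array. Ependymal cells line the ventricle next to the plexus and bear motile cilia. Of the 13 tested ependymal markers, 0 were lowest on Npc1-/- replicate 3, and their summed linear signal (in units of the array's 75th percentile) ran from 7.64 to 9.66 in Npc1-/- arrays and from 6.35 to 8.67 in wild-type arrays. Of 15 tested meningeal fibroblast markers, 1 (Bgn) was lowest there, and the sum ran from 19.6 to 26.1 in Npc1-/- arrays and from 15.3 to 17.8 in wild-type arrays. Of 11 tested brainstem and Hox markers, listed for the hindbrain tissue below the cerebellum but not all confined to it, 0 were lowest there. The sum of the brainstem list was 1.72 to 3.86 in Npc1-/- arrays and 1.07 to 3.51 in wild-type arrays, with 4 of its 11 genes above background on every array. For Hoxb5 the values were -5.08, -1.41, -0.26 and 0.15 in Npc1-/- arrays, against -7.77, -0.12, -7.91 and -5.51 in wild-type arrays. It was chosen after its values were seen, as the brainstem gene that spread most, and was above background on 6 arrays. On wild-type replicates 1 and 3 it lay under those arrays' lowest above-background signals of -5.74 and -5.85. The size of its spread is therefore uncertain. Its high arrays were wild-type replicate 2 beside Npc1-/- replicates 2, 3 and 4, and genes of the list disagreed on Npc1-/- replicate 3. That array was among the upper 4 for 6 of the 11 genes and among the lower 4 for 5, and of the 4 genes above background on every array it was among the lower 4 for 3 (Hoxa3, Hoxb6 and Hoxc4), named here to complete the count.

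The remaining lists covered vessels, blood, myelin and cerebellar neurons. Endothelial markers, such as Cldn5 and Flt1, summed to 15.6 to 16.9 in Npc1-/- arrays and 14.3 to 16.8 in wild-type arrays, with 8 of 8 tested and 2 of them lowest on Npc1-/- replicate 3 (15.3% of all genes). Their mean centred signal was also lowest on that array, at -0.08, in a range of 0.27 over the arrays. Of 6 red cell markers 3 were tested, with sums of 66.4 to 115 in Npc1-/- arrays and 50.7 to 117 in wild-type arrays, Hba-a1 and Alas2 among them, and 0 were lowest on that array. Myelin and oligodendrocyte genes, Mbp among them, summed to 254 to 310 in Npc1-/- arrays and 338 to 447 in wild-type arrays. On Npc1-/- replicate 3, 4 of the 12 were lowest, beside 15.3% of all genes. All 12 had log2 fold changes below 0, with a median of -0.58, and none passed (limma, adjusted p of at least 0.0772). An unadjusted limma p under 0.05 was reached by 10 of the 12 and by 7.4% of all genes. Cerebellar neuron genes, such as Cbln1 and Itpr1, summed to 353 to 430 in Npc1-/- arrays and 400 to 492 in wild-type arrays. All 10 had log2 fold changes below 0, with a median of -0.25, and 1 was lowest on Npc1-/- replicate 3. None of the 10 passed (limma, adjusted p of at least 0.567), and 2 were under 0.05 unadjusted, beside the 7.4% of all genes. Whether any of these tissues had a part in the choroid plexus values was not tested.

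**Figure D3:**
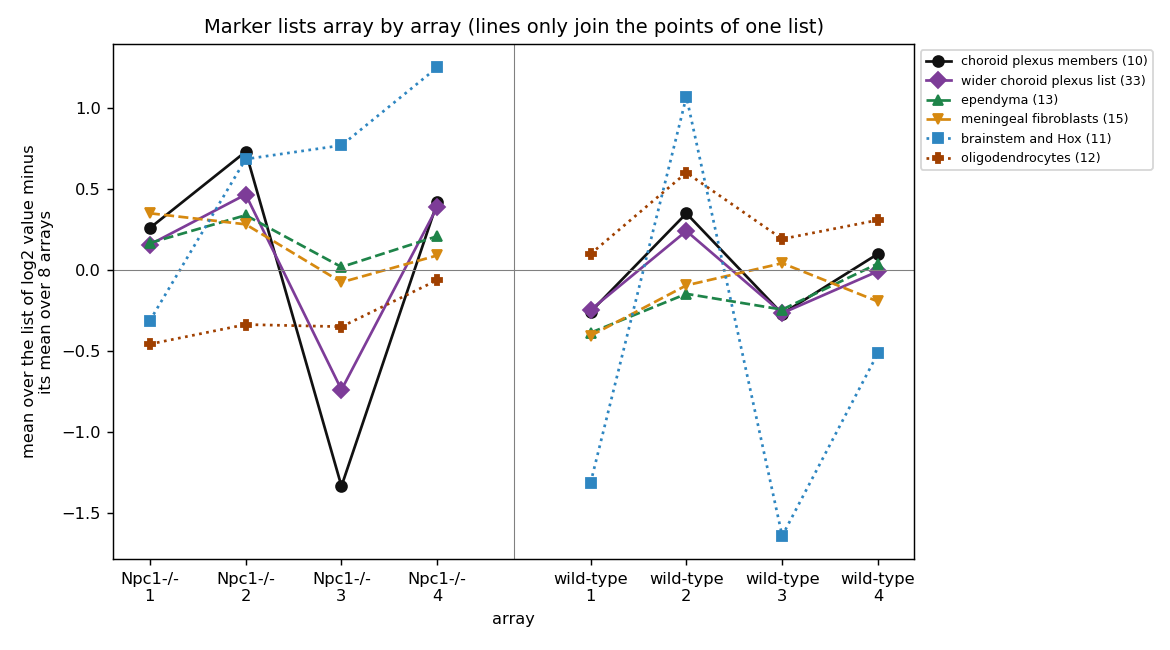
Mean over each marker list of the log2 signal minus its mean over 8 arrays (y axis), for Npc1-/- replicates 1 to 4 at left and wild-type replicates 1 to 4 at right; numbers of genes are in the legend, and lines only join the points of one list. The 10 choroid plexus genes and the 33 of the wider list dip together on Npc1-/- replicate 3 (-1.34 and -0.74), where ependymal and meningeal markers lie at 0.02 and -0.07 and brainstem markers at 0.77. The brainstem mean takes in values not above background, since only 4 of its 11 genes were above background on every array. Of those 4, 3 had Npc1-/- replicate 3 among their lower 4 arrays.

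No difference between the genotypes passed the test for any of the 10 genes. By limma (moderated test over 17981 genes, two-sided, Benjamini-Hochberg) 0 of the 10 passed an adjusted p of 0.05, where 138 genes or 0.767% did (0.734% higher and 0.0334% lower), and 0 had an unadjusted p under 0.05, where 7.4% did. Adjusted p ran from 0.764 to 0.994. At the level of probes, 0 of 13 passed, where 0.523% of all probes did. The genotype groups overlapped for all 10 genes, and were apart for 4.92% of genes. The log2 fold change was above 0 for 5 genes and below 0 for 5, with a median of 0.02 beside -0.02 for all genes tested.

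The intervals were wide, and those of Ttr, Folr1, Cldn2 and Aqp1 reached beyond 1 log2 unit in both directions. Ttr averaged 0.56 ± 1.53 in Npc1-/- arrays and 0.92 ± 0.31 in wild-type arrays (SD, n = 4 each), a log2 fold change of -0.35 ± 0.66 (SE) with a 95% interval from -1.87 to 1.16. Slc4a5 averaged -1.63 ± 0.89 in Npc1-/- arrays and -2.03 ± 0.22 in wild-type arrays, a log2 fold change of 0.41 with an interval from -0.50 to 1.31. The others had log2 fold changes of 0.22 for Kl, -0.06 for Folr1, -0.24 for Enpp2, -0.03 for Cldn2, 0.05 for Clic6, 0.20 for Aqp1, 0.21 for Prlr and -0.00 for Otx2. Otx2 had the narrowest interval, from -0.24 to 0.24. The spread was larger among Npc1-/- than among wild-type arrays for 9 of the 10 genes, all but Prlr. Without Npc1-/- replicate 3 this held for 4 of the 10. Within Npc1-/- 8 genes ranged over at least 1 log2 unit (10.1% of all genes), and within wild-type 1 did, Cldn2 (17.3% of all genes). Without Npc1-/- replicate 3, 0 genes ranged that far within Npc1-/-, the widest being Ttr at 0.78.

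Leaving out the single array at the low end turned the direction of 5 genes and the call of none. The array was picked by these values, as the lowest for 8 of the 10 genes. Leaving it out therefore raises their Npc1-/- means by construction. It was not picked by the values of all genes, so the shares of all genes given here cannot serve as a yardstick. Without Npc1-/- replicate 3, all 10 log2 fold changes were above 0, with a median of 0.46 beside -0.01 for all genes, and 0 of 10 passed (limma adjusted p from 0.0988 to 0.980; 0.539% of genes passed). An unadjusted limma p under 0.05 was reached by 4 of the 10 (7.76% of genes). Slc4a5 had a log2 fold change of 0.84 (limma adjusted p = 0.0988), Aqp1 of 0.82 (adjusted p = 0.483), Kl of 0.71 (adjusted p = 0.460) and Folr1 of 0.59 (adjusted p = 0.561). Slc4a5, Aqp1 and Kl then had groups that did not overlap, as 8.2% of genes did. For Aqp1 and Kl the margin between Npc1-/- replicate 1 and wild-type replicate 2 was narrow (-0.950 against -0.957, and -1.197 against -1.201).

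The direction also differed between slides. On slide 2, which held Npc1-/- replicate 2 and wild-type replicate 3, the median difference of the 10 genes was 1.07 log2 units. On slide 4, with Npc1-/- replicate 3 and wild-type replicate 1, it was -1.06, and on slide 3, with Npc1-/- replicates 1 and 4 and wild-type replicate 2, it was 0.01. Ttr alone differed by 1.15 on slide 2, -0.21 on slide 3 and -2.45 on slide 4. Each of these rests on 1 wild-type array. Slides 2 and 4 also held just 1 Npc1-/- array each, those with the highest and the lowest choroid index. Slide and single array therefore cannot be told apart here.

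**Figure D4:**
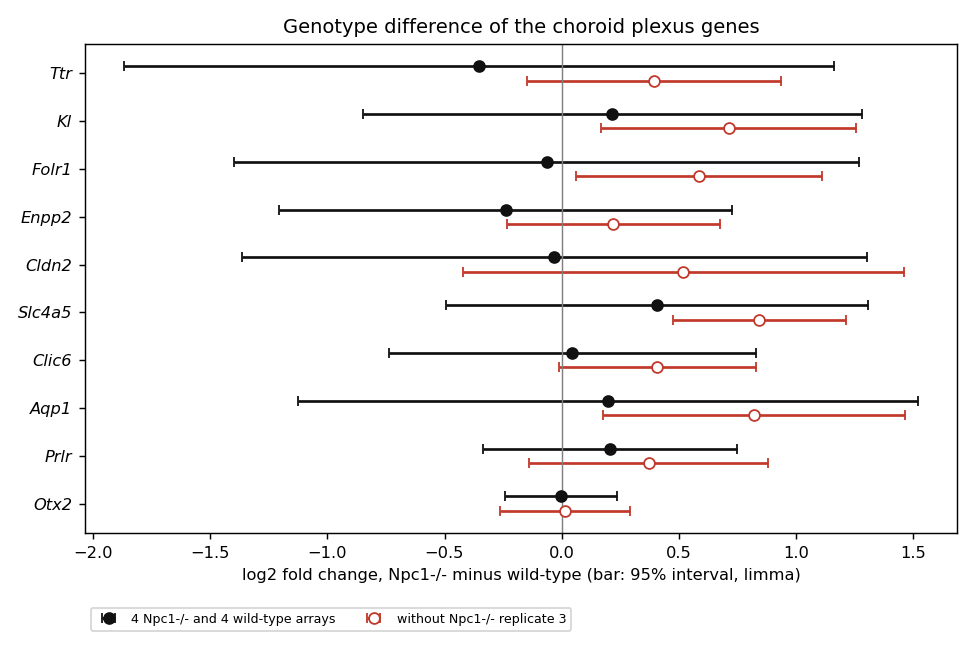
Log2 fold change of each gene, Npc1-/- minus wild-type (x axis), with its 95% interval from limma, for all 8 arrays (black) and without Npc1-/- replicate 3 (red, open). With 8 arrays every interval includes 0, and without that array all 10 points lie above 0, from 0.01 for Otx2 to 0.84 for Slc4a5. That array was picked as the lowest for 8 of the 10 genes, so leaving it out moves their points up by construction.

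The promoter of Cldn2 is printed because Cldn2 was the one gene of the 10 whose range within wild-type arrays reached 1 log2 unit, and because the letters of a TATA box stand close to its start. It is the stretch of 250 bases before the RefSeq start site at chrX:139800558-139800807, plus strand, in build GRCm38.p6, 5′ to 3′, with the letters TATAAA in capitals, beginning 35 bases before the start.
Cldn2 promoter: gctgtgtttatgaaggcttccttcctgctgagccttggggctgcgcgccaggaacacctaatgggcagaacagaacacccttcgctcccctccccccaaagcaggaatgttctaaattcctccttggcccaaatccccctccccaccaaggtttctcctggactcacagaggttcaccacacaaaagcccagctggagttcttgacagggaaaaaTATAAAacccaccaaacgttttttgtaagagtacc
Promoter windows of this length were given for 6 of the 10 genes, in 11 windows. TATAAA, searched on both strands, was found in 3 of the 11, of Cldn2, Otx2 and Slc4a5, and in 12.4% of 32851 windows of all genes. TAATCC, the letters that OTX proteins are known to bind, was found in 1 of the 11, of Otx2, and in 6.25% of all windows. A match is a description of the letters and not a binding site.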

How the data were processed

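Cerebellum RNA was read on 8 Agilent one-colour arrays. The authors deposited the scanner's intensity values, which the submitters' processing notes credit to Agilent Feature Extraction 9.5. Per the file headers, background had been subtracted spot by spot, and no scaling between arrays had been applied. A second set of bead arrays, whose table pairs its probes with no gene names, was not used here.

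Each processed signal was divided by its array's 75th percentile over 43379 non-control spots and taken to log2, with outlier-flagged spots (74 to 115 per array) set to missing and spots of a probe averaged. Kept were probes that exceeded background well on 4 or more of 8 arrays, and the probe with the highest mean signal stood for its gene, leaving 27162 probes and 17981 genes. Current gene names came from RefSeq's GRCm38.p6 table (22951 probes by accession, 6659 by symbol, 3109 by synonym, 8455 kept as in the files). Coordinates of probes are in mm7, as deposited, and promoters are RefSeq's (GRCm38.p6). Genotypes, taken from the labels, were compared in R 4.3.3 by limma 3.58.1, using lmFit and eBayes, with Benjamini-Hochberg adjustment over all genes at a threshold of 0.05. The fits were tested on simulated data. Plots used matplotlib 3.10.9.

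The members and all lists were chosen with earlier results of these data known. The genes named were every member with every probe, Npc1, the 10 other genes most like the choroid index, the 6 genes of the wider list with the largest range, and the 2 brightest genes of each other list; Hoxb5, Tph2, Hoxa3, Hoxc4, Bgn, Ecrg4, Slc28a3, Inmt and Defb11 were named after their values were seen. One gene that the rule takes is not reported here. Alternatives in scaling, normalization, background correction, filter, choice of probe, blocks for slide, scan day and replicate number, array weights, and arrays left out were computed. The labels number the replicates, which were taken as separate mice.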

Additional observations from a re-analysis of the deposited data

Results flagged for a closer look

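An array of a genotype was looked at again where its gap to the nearest array of that genotype, divided by the range of the 4, exceeded Dixon's 95% critical value. Chance flags about 1 in 20 groups that are not picked by their values, and 8 of 82 groups were flagged. Some of these genes were named for following the choroid index or for a wide range over these same arrays. The 8 of 82 therefore cannot be set against that rate. On Npc1-/- replicate 3 the low value stood out for the second probes of Clic6 (0.880) and Folr1 (0.879), and for Col8a1 (0.888), Col8a2 (0.873), Crhr2 (0.960) and Kcne2 (0.838). Alas2, a red cell gene, stood out as high on Npc1-/- replicate 2 (0.865), and Cldn5, an endothelial gene, as high on Npc1-/- replicate 4 (0.852). None of the values chosen to stand for the 10 choroid plexus genes passed this limit.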

How the results depend on the processing

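With 4 arrays per genotype, 0 of the 10 choroid plexus genes and 0 of their probes passed under any of the alternatives run, and the lowest adjusted p of a member was 0.0988, without Npc1-/- replicate 3. The count of all genes called, 138, was 75 with the median as scale, 87 with quantile normalization, 59 with no filter on dim probes, 88 with genes above background on all 8 arrays, 38 with the slide as a block and 309 with array weights, and it ran from 55 to 148 when 1 array was left out. With the replicate number as a block it was 27, and the median log2 fold change of the members was 0.02. Deviations of same-numbered arrays from their group means correlated at 0.15, 0.04, -0.44 and 0.20 for numbers 1 to 4. Not every array correlated best with its own number. Such correlations cannot decide whether equal numbers mark paired mice, and the main comparison used no pairing.

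The median log2 fold change of the members ran from -0.15 to 0.46 with 1 array left out and was 1.07 within slide 2 and -1.06 within slide 4. The span of the choroid index ran from 1.00 to 2.07 with 1 array left out, with the lowest value without Npc1-/- replicate 3. Of the correlations with Ttr, 0 in place of 7 passed without the 2 farthest arrays. Directions of uncalled genes turned. Folr1 was 0.073 with the mean of its probes and 0.10 with array weights. Cldn2 was 0.020 with the 75th percentile over probes above background on all arrays and 0.18 with array weights. Clic6 was -0.062 with the median as scale, -0.059 with the slide as a block and -0.060 with the scan day as a block. Otx2 was 0.049 with the percentile over detected probes, 0.038 with the slide, 0.028 with the scan day and 0.0091 with array weights. With 1 array left out the log2 fold change ran from -0.74 to 0.39 for Ttr, -0.049 to 0.71 for Kl, -0.39 to 0.59 for Folr1, -0.45 to 0.22 for Enpp2, -0.36 to 0.52 for Cldn2, -0.18 to 0.41 for Clic6, -0.13 to 0.82 for Aqp1 and -0.068 to 0.053 for Otx2. Slc4a5 and Prlr kept their direction with any 1 array left out. Scaling by the median moved the median of all genes to -0.12. Apart from arrays left out, the cause of these changes was not tested.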

Other observations

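No ependymal or meningeal gene passed between the genotypes, though most of their log2 fold changes lay above 0. Of 13 ependymal genes, 12 had a log2 fold change above 0, with a median of 0.37 (limma, adjusted p of at least 0.479). An unadjusted limma p under 0.05 was reached by 4 of the 13 and by 7.4% of all genes. Rarres2, the chemokine-like protein chemerin, had 1.22, 1.40, 1.17 and 1.35 in Npc1-/- arrays, against 0.93, 1.15, 1.46 and 1.12 in wild-type arrays, and Mia had a log2 fold change of -0.15. Of 15 meningeal fibroblast genes, 14 were above 0, with a median of 0.29 (limma, adjusted p of at least 0.107). Of these 15, 8 were under 0.05 unadjusted, beside the same 7.4% of all genes. Dcn, the matrix proteoglycan decorin, had 2.66, 2.26, 2.09 and 2.10 in Npc1-/- arrays, against 1.73, 1.86, 1.97 and 1.72 in wild-type arrays, and Col1a2 had a log2 fold change of 0.57. The groups of Dcn did not overlap, as was so for 4.92% of genes.

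In the brainstem and Hox list, Slc6a5, the glycine transporter of inhibitory hindbrain neurons, had -0.94, -0.16, -0.14 and 0.48 in Npc1-/- arrays, against -1.23, 0.35, -1.24 and -0.89 in wild-type arrays. Hoxb6 varied less, from -1.82 to -1.25 over the 8 arrays. Tph2, the enzyme that makes serotonin, had -1.34, -1.42, -4.58 and -3.74 in Npc1-/- arrays, against -5.05, -4.82, -4.76 and -2.73 in wild-type arrays; it was looked at after its values were seen. Its 2 highest arrays, Npc1-/- replicates 1 and 2, were not those with the highest Hoxb5.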
